A study of Mus musculus with 6 samples.

Results

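The matrix metalloproteinases (MMPs) and their tissue inhibitors (TIMPs) are described here through 10 genes, Mmp9, Mmp14, Mmp12, Mmp13, Mmp2, Mmp19, Mmp8, Timp1, Timp2 and Timp3, each found by its exact symbol among the 22601 genes of the deposited count table. Messenger RNA was sequenced from 3 WT and 3 Slc37a2 KO mice, and the samples are labelled as osteoclasts grown from bone marrow macrophages for 5 days with RANKL (10 ng/ml) and M-CSF (2 ng/ml). The study's methods describe RNA taken from whole long bones for sequencing, so the labels and the methods differ on the source. KO mice carried the Slc37a2 tm2a(KOMP)Wtsi gene trap, made from 1 targeted embryonic stem cell clone, in every tissue. The study's methods state that WT controls were littermates matched for age and sex. The labels of these samples give no litters and name no other allele or agent that differs between the groups. The column headings give an age of 11 weeks and an animal number for each library. Libraries are called by that number (WT K090, WT L080, WT L082, KO K089, KO L078 and KO L081). Every heading also carries the letter F, which is read here as female. Under that reading the libraries of WT and KO mice come from females alone. The study's methods name male and female mice for the sequencing, and state that all mice were kept on the same background strain. 

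MMPs are zinc-dependent endopeptidases made as inactive proenzymes, whose propeptide is removed by furin-like convertases, plasmin or other MMPs. TIMPs are small secreted proteins that block the active site by fitting the first residues of the mature inhibitor onto the zinc. In bone, osteoclasts are a major source of MMP9 and the membrane-anchored MMP14, while cells of the osteoblast and chondrocyte lineages make MMP13 and MMP2.

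The sequences that define both families are shown because they place the enzymes and inhibitors in the genome and show how close the transcripts are to each other. For the enzymes this is the stretch of 33 coding bases, 5′ to 3′, that encodes the catalytic zinc-binding site, with the 3 histidine codons in capitals.
Mmp9: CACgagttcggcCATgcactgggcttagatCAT
Mmp14: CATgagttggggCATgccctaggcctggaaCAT
Mmp12: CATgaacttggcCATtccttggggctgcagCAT
Mmp13: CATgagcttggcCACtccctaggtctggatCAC
Mmp2: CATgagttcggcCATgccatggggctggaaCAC
Mmp19: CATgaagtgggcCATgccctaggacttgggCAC
Mmp8: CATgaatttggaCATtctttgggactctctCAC
On build GRCm38 (mm10) they lie on the plus strand, each inside 1 coding exon: exon 8 of 13 in Mmp9 (chr2:164951133-164951165) and in Mmp2 (chr8:92839279-92839311), the gelatinases, and exon 5 in the others. Exon 5 of 10 holds the site in Mmp14 (chr14:54437627-54437659), Mmp12 (chr9:7352914-7352946), Mmp13 (chr9:7276573-7276605) and Mmp8 (chr9:7563086-7563118), and exon 5 of 9 holds it in Mmp19 (chr10:128795673-128795705). Any pair of the 7 stretches had the same base at 20 to 27 of 33 positions, with the highest value for Mmp14 and Mmp2, and 16 positions were the same in all 7. Mmp13, Mmp12 and Mmp8 lie together on chromosome 9, within 296.0 kb (chr9:7272514-7568485).

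For the inhibitors the start of the mature protein is shown, 33 bases with the codons in capitals for the pair of cysteines at the zinc-facing end of the inhibitor.
Timp1: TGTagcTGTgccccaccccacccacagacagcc
Timp2: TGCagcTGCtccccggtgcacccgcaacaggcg
Timp3: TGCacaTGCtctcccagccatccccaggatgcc
They are in exon 2 of 6 of Timp1 (chrX:20871111-20871143, plus strand), exon 1 of 5 of Timp2 (chr11:118354980-118355012, minus strand) and exon 1 of 5 of Timp3 (chr10:86300923-86300955, plus strand). Pairs of them had the same base at 19 or 20 of 33 positions. Timp1 lies within Syn1 and Timp3 within Syn3 on the opposite strand, and Timp3 shares 1733 exon bases with Syn3. Whether reads were counted by strand is not given in the sources used here, and Syn3 had at most 2 counts in any library. Mmp19 shares 789 exon bases with Tmem198b and 212 with Gm47093, and Mmp12 shares 157 with Mmp1b, all on the opposite strand.

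Across the series, library totals ran from 27552183 to 42522292 counts, and 13483 genes passed the filter on low counts. Values are CPM (counts scaled to library size) scaled by the trimmed mean of M-values (TMM factors 0.931 to 1.06). Slc37a2, the targeted gene, fell from a WT mean of 2149 CPM (SD 292, n = 3) to a KO mean of 38.1 CPM (SD 6.66, n = 3), a log2 fold change of −5.82, and it was the single gene called at an adjusted p below 0.05 by edgeR's quasi-likelihood test (0.00742% of those tested, adjusted p = 7.07e-04). The osteoclast markers Acp5 (TRAP) and Ctsk (cathepsin K) averaged 13453 and 13174 CPM over the 6 libraries. Of the osteoblast and osteocyte list, the mineralised-bone markers Bglap and Bglap2 had at most 1 count in any library. Runx2, Alpl and Sp7 of the same list averaged 13.1, 4.64 and 2.02 CPM. These levels do not settle the source of the RNA, which was not tested. Summed levels of the osteoblast and osteocyte list were 16.2 to 26.2 CPM, those of the cartilage list 7.99 to 38.7 CPM and those of the neutrophil list 0.354 to 1.41 CPM. KO L078 stood apart from the other KO libraries. With all 6 libraries 96 genes (0.712%) had an unadjusted p below 0.05 in edgeR's quasi-likelihood test, and without KO L078 2732 of 13585 (20.1%) did, while the single gene called was again Slc37a2 (0.00736%). Nothing in the labels says how the animals were processed relative to each other, so p-values measure the spread between these libraries.

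All 10 genes passed the filter, and 0 of 10 were called between genotypes by edgeR's quasi-likelihood test, beside 0.00742% of all tested genes. One gene of the 10, Mmp12, had an unadjusted p below 0.05 in that test, and DESeq2's Wald test also called 0 of 10. In order of level per kb of exon, the members fell into 4 levels whose ranges did not overlap. Mmp9, the gelatinase B of resorbing osteoclasts, averaged 6735 ± 1569 CPM per kb (SD over 6 libraries), 51.8-fold above Mmp14, and no library of either gene came near the other. Mmp14, the membrane-type collagenase, and Timp2, its inhibitor and partner in proMMP2 activation, were at 130.02 ± 10.8 and 124 ± 13.4 CPM per kb. Timp1, which binds MMP9 and its proenzyme, followed at 62.8 ± 32.4 CPM per kb.

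The ranges of Mmp14 and Timp2 overlapped, as did those of Timp2 and Timp1, although Timp2 was above Timp1 within each of the 6 libraries. Below a 7.44-fold gap came Mmp19 (8.44 ± 0.556 CPM per kb), Mmp2 (8.31 ± 3.59), Timp3 (7.17 ± 3.25) and Mmp12 (4.10 ± 0.540), whose ranges overlapped from each to the next. Mmp13 (1.57 ± 0.543) and Mmp8 (1.21 ± 0.598) were lowest and overlapped, 2.62-fold under Mmp12 for the first of them. These levels use the exon length of each gene in GENCODE M21, over all its transcripts, which may not be the annotation used for counting.

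**Figure D1:**
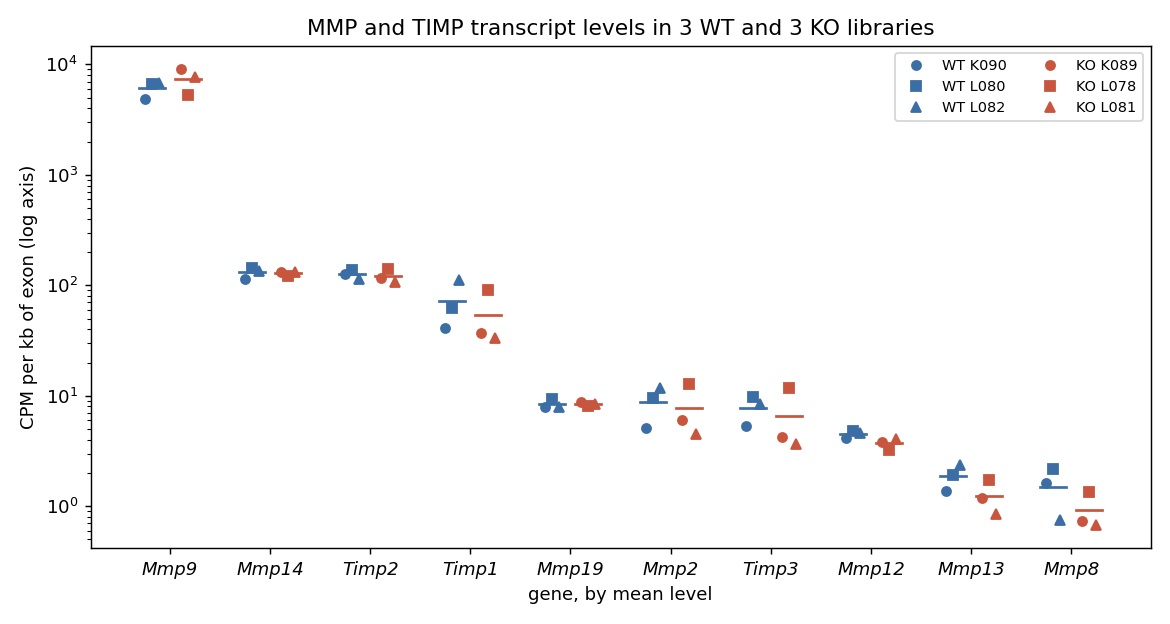
Level of each MMP and TIMP transcript in the 6 libraries, in CPM per kb of exon on a log axis, ordered by mean, with WT libraries in blue, KO libraries in red and short lines at the group means (n = 3). Mmp9 stands 51.8-fold above Mmp14, and WT and KO points lie among each other for every gene but Mmp12.

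Mmp9 had 17157, 23544 and 24072 CPM in WT K090, L080 and L082, and 32320, 18721 and 27194 CPM in KO K089, L078 and L081. It was the most abundant transcript of the table, with 1.78% to 3.01% of all counts of a library and 95.7% to 97.3% of the counts of the 20 MMP genes listed. The 2 highest libraries were KO, but KO L078 was below 2 of the 3 WT libraries, so the groups overlapped. The log2 fold change was 0.27 (SE 0.28, 95% interval −0.41 to 0.95, n = 3 per group), with an adjusted p of 0.969 by edgeR's quasi-likelihood test. The interval covers changes from 0.754-fold to 1.94-fold, so a difference within that range was not excluded with 3 libraries a group. Without KO L078 the log2 fold change was 0.46 (95% interval −0.06 to 0.98).

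Mmp14 had 680.03, 864 and 799.9 CPM in the WT libraries and 791, 723 and 792 CPM in the KO libraries, in the same order of animals. All 3 KO values lay inside the WT range. The log2 fold change was −0.02 (SE 0.11, 95% interval −0.29 to 0.24). Mmp14 made up 85.6% to 90.3% of the CPM summed over the MMP genes other than Mmp9.

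Mmp12, the macrophage elastase, was the only member whose groups did not overlap. It had 30.0, 34.4 and 33.1 CPM in the WT libraries and 27.7, 23.4 and 29.5 CPM in the KO libraries. Each KO library was below each WT library, by a small margin between KO L081 and WT K090. The log2 fold change was −0.27 (SE 0.11, 95% interval −0.53 to −0.01), with an unadjusted p of 0.0415 and an adjusted p of 0.969 by edgeR's quasi-likelihood test. One of 10 members without overlap stands beside 4.31% of all tested genes (2.81% in the lower direction), and 1 of 10 at an unadjusted p below 0.05 beside 0.712%. KO L078 was the lowest library, and without it the interval reached −0.39 to 0.03. The groups of Mmp12 overlapped under upper quartile scaling, without KO K089 and without WT L082. Its unadjusted p was 0.0579 with DESeq2 size factors, 0.0653 by DESeq2's Wald test, 0.0687 by edgeR's likelihood ratio test and 0.0677 by edgeR's quasi-likelihood test with the letter of the animal number as a term.

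Mmp19, a secreted MMP, and Timp2 varied little. Mmp19 had 28.0, 32.9 and 28.2 CPM in the WT and 31.3, 28.6 and 29.8 CPM in the KO libraries, the narrowest range of the 10 members at 1.18-fold from lowest to highest. Its log2 fold change of 0.01 had a 95% interval of −0.20 to 0.22. Timp2 had 492, 533 and 445 CPM in the WT and 456, 549.6 and 416 CPM in the KO libraries, with a log2 fold change of −0.05 (SE 0.13, 95% interval −0.35 to 0.26). For Mmp14, Mmp19 and Timp2 the intervals exclude a change beyond about 0.783-fold or 1.20-fold, the bounds for Timp2, which were the widest of the 3. Timp2 carried 72.6% to 87.5% of the counts of the 4 TIMP genes listed.

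Mmp2 (gelatinase A), Timp1, Timp3 and Mmp13 (collagenase-3) had much wider spreads, and their groups overlapped. Mmp2 had 17.4, 32.1 and 39.8 CPM in the WT and 20.1, 43.4 and 15.2 CPM in the KO libraries. Timp1 had 36.8, 54.8 and 99.8 CPM in the WT and 32.9, 80.8 and 29.4 CPM in the KO libraries. In both genes KO L078 and WT L082 were the 2 highest libraries and KO L081 was the lowest.

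Timp3, the inhibitor that binds to extracellular matrix, had 43.02, 79.1 and 68.3 CPM in the WT and 34.7, 95.3 and 29.98 CPM in the KO libraries. Mmp13 had 3.68, 5.12 and 6.32 CPM in the WT and 3.19, 4.57 and 2.26 CPM in the KO libraries, from 64 to 206 counts. In Timp3 KO L078 was again the highest library, while in Mmp13 it came after WT L082 and WT L080. In Timp1, Timp3 and Mmp13 the other KO libraries, K089 and L081, were below every WT library. The log2 fold changes were −0.17 (SE 0.46) for Mmp2, −0.41 (SE 0.51) for Timp1, −0.25 (SE 0.48) for Timp3 and −0.58 (SE 0.32) for Mmp13, each with an adjusted p of 0.969 by edgeR's quasi-likelihood test. The highest library of the 6 exceeded the lowest 2.86-fold for Mmp2, 3.39-fold for Timp1, 3.18-fold for Timp3 and 2.79-fold for Mmp13.

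Mmp8, the neutrophil collagenase, had 3.90, 5.23 and 1.83 CPM in the WT and 1.80, 3.24 and 1.63 CPM in the KO libraries. WT K090, WT L080 and KO L078 were high and the other three were low, a 3.22-fold range. At its lowest Mmp8 rested on 46 counts, a counting error of 14.7%. Its log2 fold change was −0.70 (SE 0.45, 95% interval −1.79 to 0.38), the largest in size among the members, with an adjusted p of 0.969 by edgeR's quasi-likelihood test. The summed neutrophil markers were near 0 and highest in WT L082, a library where Mmp8 was low. S100a8, the one neutrophil marker that passed the filter, had 0.833, 0.601 and 0.706 CPM in the WT and 0.294, 0.488 and 0.318 CPM in the KO libraries.

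Over the 10 members, 8 had a log2 fold change below 0 and 2 (Mmp9 and Mmp19) above it, with a median of −0.21. Among all tested genes 56.2% were below 0 and the median was −0.02. For 5 of the 10 members the highest library was at least 2-fold above the lowest, beside 22.7% of tested genes. Without KO L078, Timp3 had a log2 fold change of −0.97 (95% interval −1.61 to −0.33), Timp1 −1.03 (−2.05 to −0.01) and Mmp13 −0.88 (−1.61 to −0.15). These 3 had an unadjusted p below 0.05 in edgeR's quasi-likelihood fit, as did 20.1% of all genes without that library, and their adjusted p-values were 0.227 to 0.245. Then 6 of the 10 members (Mmp12, Mmp13, Mmp8, Mmp9, Timp1 and Timp3) had groups that did not overlap, beside 41.6% of all genes.

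**Figure D2:**
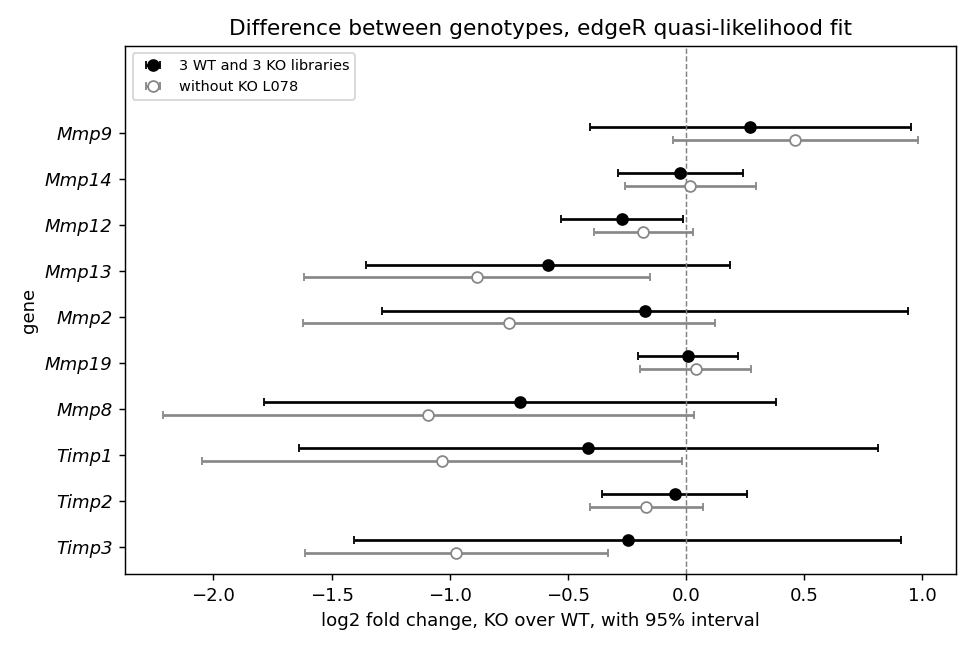
Log2 fold change of each member, KO over WT, with its 95% interval from edgeR's quasi-likelihood fit, for all 6 libraries (black) and without KO L078 (grey, open). With 6 libraries only the interval of Mmp12 (−0.53 to −0.01) leaves out 0, and without KO L078 those of Mmp13, Timp1 and Timp3 do instead.

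The libraries differed in the summed level of cell type markers, and several members had the same high and low libraries as one of these sums. The summed level of 12 stromal markers (fibroblast genes such as Col1a1, Col1a2 and Postn) was 876, 1318 and 1699.7 CPM in WT K090, L080 and L082, and 759, 1931 and 688 CPM in KO K089, L078 and L081, a 2.81-fold range. Mmp2, Timp1, Timp3 and Mmp13 had the same 3 highest libraries as this sum (KO L078, WT L082 and WT L080), as did 8.89% of all tested genes. Of the 11 stromal markers tested, 10 were lower in KO and 1 was higher, with 0 called. In bulk RNA, more cells of a type and more RNA per cell cannot be told apart.

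Set against the stromal sum in the same library, Mmp2 was at 1.98%, 2.44% and 2.34% in the WT and 2.65%, 2.25% and 2.21% in the KO libraries. Timp1 was at 4.20%, 4.16% and 5.87% in the WT and 4.34%, 4.19% and 4.28% in the KO libraries. Timp3 was at 4.91%, 6.004% and 4.02% in the WT and 4.57%, 4.94% and 4.36% in the KO libraries. On this scale the range from lowest to highest library narrowed from 2.86-fold to 1.34-fold for Mmp2, from 3.39-fold to 1.41-fold for Timp1 and from 3.18-fold to 1.49-fold for Timp3. For Mmp13 it narrowed less, from 2.79-fold to 1.78-fold, and KO L078 became its lowest library at 0.237% against 0.329% to 0.421% in the others. Between the groups the relative level of Mmp2 differed by 0.0733 on the log2 scale, that of Timp1 by −0.15, that of Timp3 by −0.11 and that of Mmp13 by −0.26, KO minus WT. These genes were set against the stromal sum for their shared highest libraries, which favours a narrower range. Relative to the osteoclast sum the ranges were wider than in CPM, at 4.92-fold for Mmp2, 4.73-fold for Timp1, 5.47-fold for Timp3 and 3.48-fold for Mmp13. The part of the stromal markers in the levels of these genes was not tested.

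Mmp9 had the same order of the 6 libraries as the summed osteoclast markers (Acp5, Ctsk, Atp6v0d2 and others). That sum was 22586, 28658 and 35462 CPM in the WT and 45569.9, 24513 and 42202 CPM in the KO libraries. Mmp9 stood at 76.0%, 82.2% and 67.9% of it in the WT and at 70.9%, 76.4% and 64.4% in the KO libraries. The range of Mmp9 narrowed from 1.88-fold in CPM to 1.27-fold relative to the sum, and the difference between groups, KO minus WT, went from 0.27 to −0.0941 on the log2 scale. All 12 osteoclast markers had a log2 fold change above 0 (median 0.25) and none was called. The same 3 highest libraries as the osteoclast sum were seen in 20.8% of tested genes, and the share with the same order of all 6 was not counted.

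Mmp8 and Timp2 shared their 3 highest libraries (WT K090, WT L080 and KO L078) with the summed macrophage markers (Adgre1, Csf1r, Lyz2 and others), as did 22.6% of tested genes. The macrophage sum was 8725, 8128 and 5467 CPM in the WT and 5838, 8084 and 5992 CPM in the KO libraries. Relative to it the range of Mmp8 was 2.37-fold in place of 3.22-fold, and that of Timp2 was 1.44-fold, wider than its 1.32-fold range in CPM. Of 12 macrophage markers 9 were lower and 3 higher in KO, with 0 called. Lyz2, the most abundant of them, had 4288, 3561 and 1249 CPM in the WT and 1021, 3765 and 1401 CPM in the KO libraries. Its 3 highest libraries were those of the sum. Csf1r and Cd68, the next in abundance, did not share them and were highest in KO K089 (2096 and 2252 CPM). Csf1r was lowest in KO L078 (1724 CPM) and Cd68 in WT K090 (1454 CPM). The osteoclast and macrophage sums were set beside Mmp9, Mmp8 and Timp2 for their shared highest libraries, which favours a narrower range. The part of these cell type sums in the levels of these genes was not tested.

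**Figure D3:**
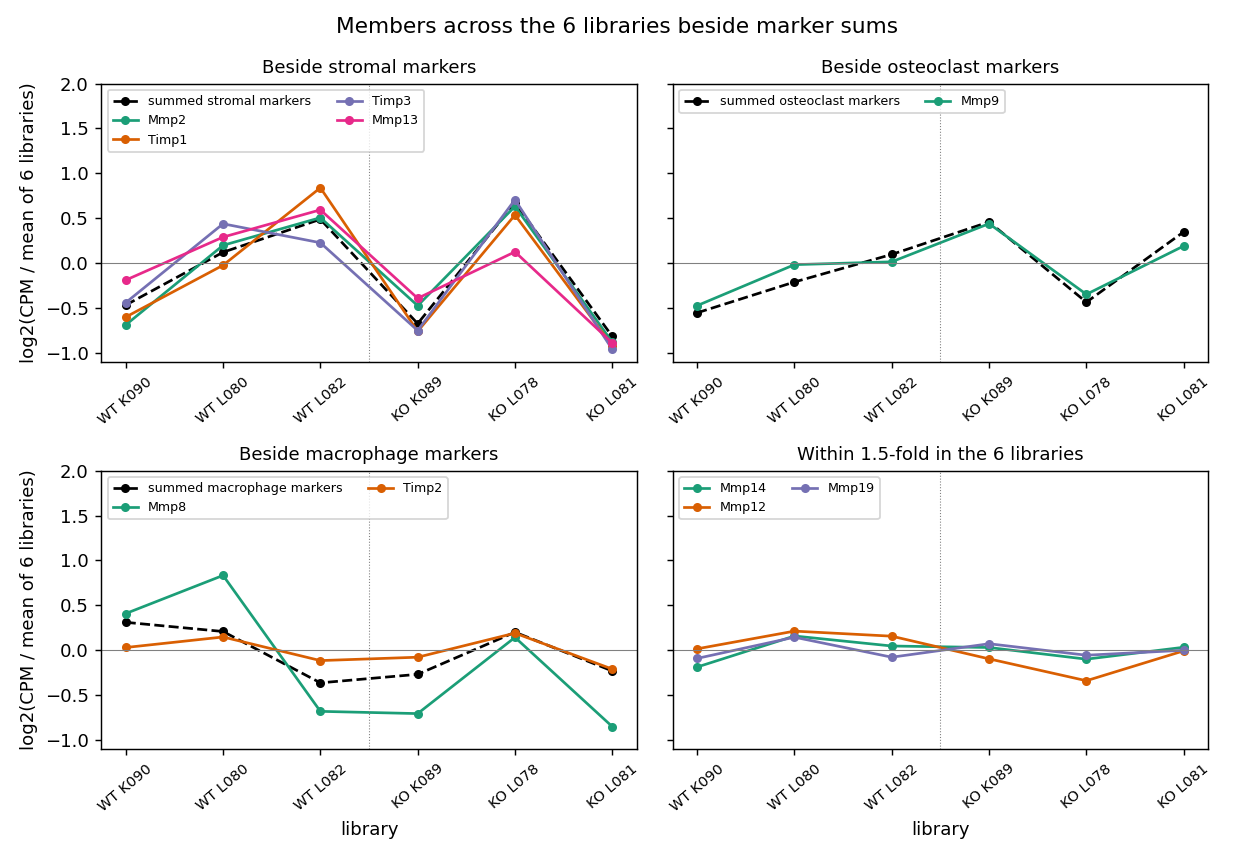
Level of each member in the 6 libraries as log2 of its CPM over its mean of the 6, beside the summed markers of a cell type (black dashed), with WT to the left of the dotted line and KO to the right; the joining lines only guide the eye. Mmp2, Timp1 and Mmp13 rise and fall with the stromal sum, as does Timp3 except from WT L080 to WT L082. Mmp9 rises and falls with the osteoclast sum, and Mmp14, Mmp12 and Mmp19 stay within 1.5-fold.

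Likeness to each member across the 6 libraries was measured by Pearson’s r of log2(CPM + 0.5) among genes above 10 CPM. Mmp2 was nearest to Hspg2 (perlecan, r = 0.999), Efnb1 and Loxl2 (a collagen cross-linking enzyme), and Timp1 to Maged1 (r = 0.991), Rrp1b and Serpinh1 (the collagen chaperone HSP47). Timp3 was nearest to Ccnd2 (r = 0.995), Ecm1 and Socs5, and Mmp13 to Tbc1d8b (r = 0.983), Nr1d1 and Ikbip. Mmp9 was nearest to Abca2 (r = 0.998), Fbxo9 and Ubl4a, and Mmp8 to Dpy19l4 (r = 0.997), Nckipsd and Cers6. Mmp14 was nearest to Pop4 (r = 0.988), Mmp12 to Rrp36 (r = 0.986), Mmp19 to 4931406C07Rik (r = 0.987) and Timp2 to Tmem248 (r = 0.989). Among the members, Mmp2 and Timp1 had r = 0.953, Mmp2 and Timp3 r = 0.937, Mmp13 and Timp1 r = 0.899, and Mmp8 and Timp2 r = 0.853. The values rest on the same 6 libraries, which differ in depth and in the marker sums, and on 8691 genes compared for Mmp2, so they are descriptions.

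The balance of enzyme to inhibitor was compared as a ratio of levels per kb within each library, which does not depend on scaling. Mmp9 exceeded Timp1 by 117-fold, 108-fold and 60.5-fold in the WT and by 246-fold, 58.1-fold and 232-fold in the KO libraries. KO K089 and KO L081 were above all WT libraries and KO L078 was below them. The mean log2 ratio was 6.51 in WT (SD 0.52) and 7.22 in KO (SD 1.18, n = 3 each), a difference of 0.71 (exact permutation test, two-sided, p = 0.4).

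Mmp14 and Timp2 were near equal in every library. Their ratio was 0.904, 1.06 and 1.18 in the WT and 1.13, 0.859 and 1.24 in the KO libraries, with log2 means of 0.06 ± 0.19 and 0.09 ± 0.28 (SD, n = 3 each) and a difference of 0.04 (exact permutation test, two-sided, p = 0.8). Both p-values were 0.8 after Benjamini-Hochberg adjustment over the 2 exact permutation tests, and with 3 libraries a group the smallest p such a test can give is 0.1. These are ratios of transcripts, and protein was not measured in these libraries.

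**Figure D4:**
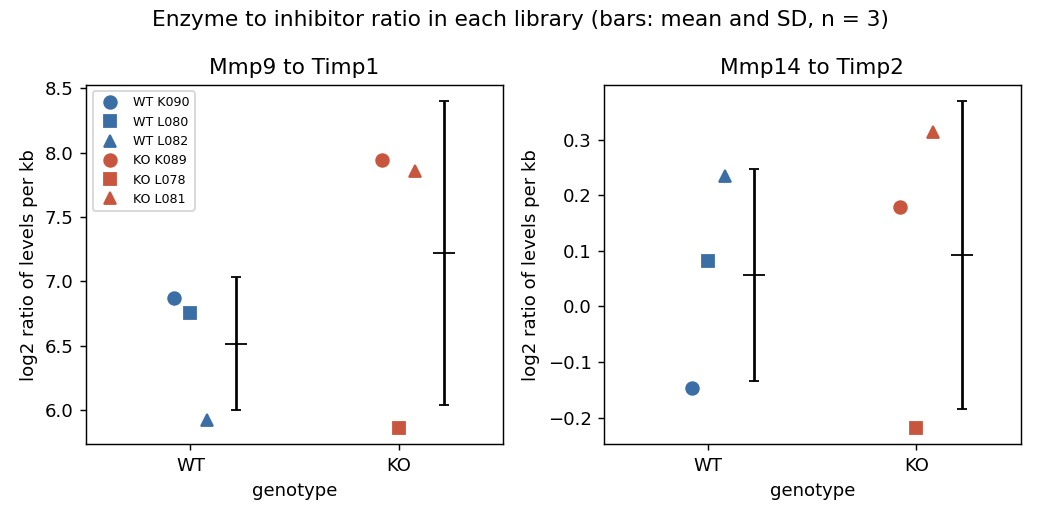
Log2 ratio of levels per kb of Mmp9 to Timp1 (left) and of Mmp14 to Timp2 (right) in each library, by genotype, with the group mean and SD beside the points (n = 3). The KO libraries span the whole range of Mmp9 to Timp1, with KO L078 lowest at 5.86 and KO K089 highest at 7.94.

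The rest of the family was scarce. Of 20 MMP genes listed, 14 passed the filter, and 8 averaged below 1 CPM. Mmp23, Mmp17 and Mmp11 were the most abundant of those that are not members, at 3.90, 2.27 and 2.00 CPM over the 6 libraries. Mmp27 had 2.47, 2.44 and 0.642 CPM in the WT and 0.367, 2.00 and 0.247 CPM in the KO libraries. It was high in the same libraries as Mmp8 (WT K090, WT L080 and KO L078), and its log2 fold change was −1.03 (SE 0.86). Timp4 had a single count in the 6 libraries together. Of the 7 other family genes tested, 2 were higher and 5 lower in KO, with 0 called, and the 10 members took 99.9% or more of all MMP and TIMP counts in each library.

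Related metalloproteinases were read from a list of 12 ADAM and ADAMTS genes. All 12 had a log2 fold change below 0 (median −0.27), and 0 were called. The most abundant were Adam8, which is made by osteoclast precursors, at 429 CPM over the 6 libraries (log2 fold change −0.29, SE 0.24), the sheddase Adam10 at 216 CPM (−0.13, SE 0.15) and Adam9 at 198 CPM (−0.03, SE 0.08).

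Genes that activate, dock or clear MMPs split evenly, with 9 higher and 10 lower in KO of 19 tested and 0 called (median −0.06). Cd44, the cell-surface anchor of MMP9, was at 844 ± 66.8 CPM in WT and 903 ± 115 CPM in KO (SD, n = 3 each). Lgals3 (galectin-3, an MMP substrate) and Itgav were the most abundant, with log2 fold changes of 0.35 (SE 0.28) and 0.13 (SE 0.18). The transcription factors of MMP genes were 8 higher and 8 lower of 16 tested (median −0.00491), with 0 called. Fosl2 (log2 fold change 0.13, SE 0.13), Spi1 (PU.1, 0.19, SE 0.12) and Nfatc1 (0.05, SE 0.08) were the most abundant of them. Mitf was the one gene of the 16 without overlap, beside 4.31% of all tested genes (2.81% in the lower direction). It had 94.3, 95.9 and 99.7 CPM in the WT and 91.7, 89.5 and 92.5 CPM in the KO libraries, a difference of −0.08 (SE 0.05).

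Matrix proteins that MMPs cut were lower in KO for 14 of 15 genes tested (median −0.24), with 0 called. The exception was Spp1 (osteopontin), also an osteoclast product, with a log2 fold change of 0.49 (SE 0.27). Fn1 (fibronectin) had 1029, 1421 and 1635 CPM in the WT and 746, 2292 and 608 CPM in the KO libraries, so it was highest in KO L078 and lowest in KO L081 like Mmp2 and Timp3. Col1a1, Col1a2, Col3a1 and Dcn are counted both here and among the stromal markers, so the lists are not independent.

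Promoters were read for the AP-1 motif, since AP-1 factors such as Fosl2 act on MMP genes. RefSeq windows of 250 bases before the start were at hand for 7 of the 10 members, in 8 windows. Both motif forms, TGACTCA and its reverse complement TGAGTCA, were searched, and 2 of the 8 windows held one, against 4.46% of 32851 windows of that length. Of the windows of Mmp12, the one at the upstream start (chr9:7344147-7344396) held none. Whether the members hold the motif more often than other genes was not tested. The matches are shown in 61 bases each, on the plus strand, with the motif in capitals.
Mmp13: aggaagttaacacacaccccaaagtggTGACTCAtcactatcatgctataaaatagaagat
Mmp12: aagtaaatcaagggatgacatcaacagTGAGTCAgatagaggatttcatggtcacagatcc
The first (chr9:7272452-7272512, GRCm38.p6) starts its motif 35 bases before the start of Mmp13, and the second (chr9:7347303-7347363) 44 bases before a start of Mmp12. Neither stretch overlaps a GENCODE exon of its own gene, and exons of other genes were not checked. A match is a run of letters and shows no binding.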

How the data were processed

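RNA from 3 WT and 3 Slc37a2 KO mice was sequenced. The authors deposited raw counts per gene (whole numbers, 1 column per animal), and per the labels used bcl2fastq 2.20.0.422, edgeR 3.30.3 and build mm10. Aligner, read counter and gene annotation: not given in the sources used here. Columns of the authors' fold changes, likelihood ratios, p-values and FDR, and a list of top genes, were not used. Columns name the genotype and animal, not the labels' replicate numbers. The members, lists and tests were chosen with earlier results of these data known.

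Counts were filtered with filterByExpr, scaled by TMM and tested with edgeR 4.0.16 (quasi-likelihood F-test, R 4.3.3), with Benjamini-Hochberg adjustment over 13483 genes and a threshold of 0.05. The code was tested on simulated data. SEs are the fold change divided by the root of F. Ratios were compared by exact permutation over libraries. Intervals are at 95%. Exon lengths, positions and coding sequences came from GENCODE M21 (GRCm38), promoters from RefSeq (GRCm38.p6). Named genes outside the members were mostly the 3 most abundant of each list, up to 3 without overlap, and the 3 most correlated with each member. Others, among them the targeted Slc37a2 and Bglap, Bglap2, Mmp27, Timp4 and Adgre1, were named outside this rule. Genes of the interferon and proliferation lists were all lower in KO (12 of 12 and 10 of 10 tested, 0 called). Totals of 27552183 to 42522292 counts leave a counting error in the lowest library of 0.123% (Mmp9) to 14.7% (Mmp8), and for Mmp19 it (3.45%) is close to the coefficient of variation among KO libraries (4.46%). Alternatives used DESeq2 1.42.0, other scalings, filters and tests, the letter of the animal number as a term, and each library left out.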

Additional observations from a re-analysis of the deposited data

How the results depend on the processing

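No member was called under any of the 14 other settings tried, and 126 of 140 recomputed fold changes kept their direction. The limits are the 3 libraries a group and KO L078, without which the spread within KO fell. No paired analysis was possible because the columns carry no replicate number. The animal numbers start with K or L, which does not pair the L animals, and with that letter as a term 1 gene and 0 members were called. Slc37a2 alone was called with 6 libraries, and 2 genes (En2 besides, named after its values were seen) were called with no filter, by the DESeq2 Wald test and by edgeR's likelihood ratio test. At an unadjusted p below 0.05, edgeR's quasi-likelihood test had 1 member (Mmp12), and DESeq2's Wald test and edgeR's likelihood ratio test had 0.

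Members without overlap numbered 1, but 0 under upper quartile scaling and 0 to 6 with 1 library left out (0 without KO K089, beside 6.91% of all genes, 3 without WT K090, beside 9.43%, 2 without WT L080, beside 9.60%, and 6 without KO L078, beside 41.6%). Without WT L082 the one such member was Mmp8 in place of Mmp12 (16.4% of all genes), and without KO L081 it was Mmp12 (6.98%). Members higher in KO numbered 2, but 1 with library totals alone and 1 to 5 with 1 library left out (1 without WT K090, 4 without WT L080, 5 without WT L082, 5 without KO L081). With library totals alone Mmp19 turned to −0.0482 on the log2 scale, and the median of all genes moved from −0.02 to −0.08. With 1 library left out, the log2 fold change ran from −0.0314 to 0.0905 for Mmp19, −0.11 to 0.0548 for Mmp14, −0.17 to 0.0571 for Timp2, −0.75 to 0.12 for Mmp2, −1.03 to 0.0859 for Timp1 and −0.97 to 0.0528 for Timp3. It kept its sign for Mmp9 (0.11 to 0.46), Mmp12 (−0.33 to −0.18), Mmp13 (−0.88 to −0.35) and Mmp8 (−1.09 to −0.36). The log2 ratio of Mmp14 to Timp2 ran from −0.0762 to 0.19 and that of Mmp9 to Timp1 from 0.34 to 1.39. Relative to marker sums, an alternative chosen after seeing the data, members were set only against the sum whose 3 highest libraries they shared. In those pairs 3 members turned: Mmp2 to 0.0733, Mmp9 to −0.0941 and Timp2 to 0.0847. In pairs that were not chosen others turned too, among them Mmp14 (0.43) and Mmp12 (0.20) against the stromal sum. Mmp19 turned to −0.31 against the osteoclast sum. The cause of these changes was not tested.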
